A study of Danio rerio with 7 samples.

Results

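The 36 genes described here act in S phase, when a cell copies its DNA: helicase subunits and loaders, fork proteins, enzymes that make deoxynucleotides, chromatin factors, and regulators of entry into S phase. They were taken by gene symbol from the deposited tables, and all 36 were found in both, among 17651 genes of the timeline table and 18597 genes of the second 18 hpf table. The cells came from embryos carrying Tg(sox10:nEOS)w18, in which sox10 sequences drive a photoconvertible nuclear protein in neural crest (NC) cells, on an AB background. Cells of the stream that fills the first pharyngeal arch (PA1) were photoconverted, dissociated and sorted for the converted colour. Embryo age was counted in hours post-fertilization (hpf). The timeline libraries, all made with 10X chemistry version 2, held 238 cells at 12 hpf, 354 at 14, 248 at 18, 516 at 20, 388 at 24 and 131 at 30 hpf, and a second 18 hpf library made with chemistry version 3 held 979. No other genotype or treatment was present. Every stage and chemistry had 1 library, made from several pooled embryos, and differences between stages therefore have no replicate check. Stage, library and, for the second 18 hpf library, chemistry cannot be told apart.

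DNA replication is prepared in G1, when Cdc6 and Cdt1 load the Mcm helicase onto origins, and begins when cyclin E and Cdk activity turn loaded helicases into forks. E2f transcription factors switch on most of the genes that this requires, so their transcripts rise as cells approach S phase and decline before mitosis. Many cell types slow or leave the cycle as they differentiate, whereas NC cells go on dividing while they migrate and fill the arches. Transcripts of these genes are a sign of cells near S phase and are no measure of DNA synthesis.

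Levels are given as UMIs per 1000000 UMIs (CPM) summed over the cells of a library, and the score of a cell is the number of UMIs on the 36 genes after every cell was thinned at random to 5000 UMIs, which left out 3 of the 2854 cells. Median depth ran from 10807.5 UMIs per cell at 14 hpf to 19222 at 20 hpf in the timeline and was 23038 in the second 18 hpf library. Intervals are exact 95% intervals and cover counting error only. In all, 25 cells were called doublets and kept, and 1 barcode occurred in more than 1 library. The sorted cells were not all NC: at least 1 UMI of the macrophage gene mfap4, the heart muscle gene myl7 or the epithelial gene epcam was found in a minority of every library, and these cells were used as gates for comparison.

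The 36 genes took between 0.30% and 0.58% of all UMIs. In order of age their share was 0.42%, 0.39%, 0.30%, 0.58%, 0.53% and 0.57% in the timeline, and it was 0.42% in the second 18 hpf library. The median score was 19, 19, 13, 28, 27 and 28 UMIs in the timeline libraries in order of age and 17 in the second 18 hpf library. The upper quartile of timeline cells was a score of 34. Among the earlier libraries, 15.1% of cells reached it at 12 hpf (interval 10.8 to 20.3), 10.8% at 14 (7.75 to 14.5) and 8.50% at 18 hpf (5.34 to 12.7). Among the later ones, 39.7% did at 20 hpf (35.5 to 44.1), 35.1% at 24 (30.3 to 40.03) and 38.9% at 30 hpf (30.5 to 47.8). The second 18 hpf library had 20.7% (18.2 to 23.4). The score is a range with no break at that value, and 84 of the 1872 timeline cells lay within 1 UMI of it. The libraries of 20, 24 and 30 hpf were above those of 12, 14 and 18 hpf by all 3 measures. The intervals of this last share did not overlap between these earlier and later libraries. They did not overlap between the 2 libraries of 18 hpf either, so such a gap also occurs between libraries of 1 age. These intervals count cells and do not cover differences between libraries.

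**Figure D1:**
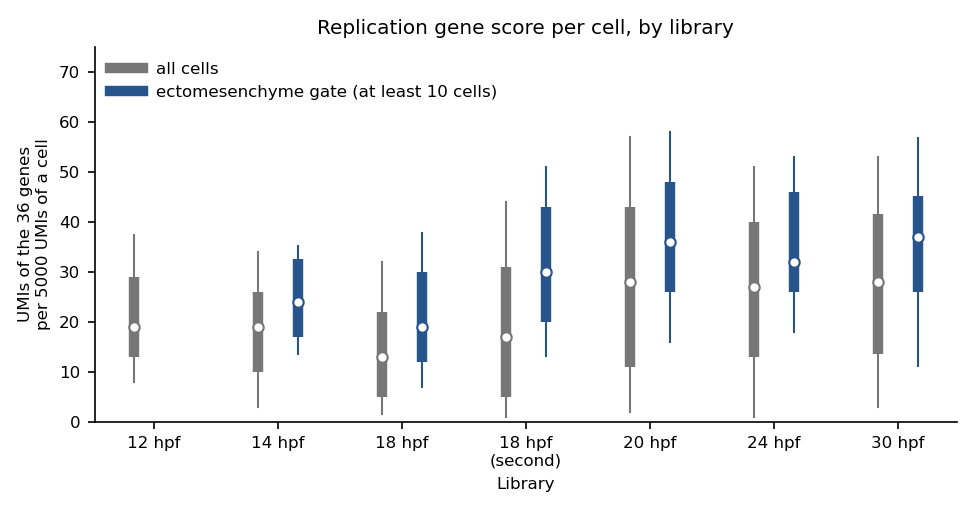
Score per cell (UMIs on the 36 genes per 5000 UMIs of a cell, vertical axis) in each library (horizontal axis), for all cells in grey and for cells of the ectomesenchyme gate in blue. Circles are medians, thick bars run between the lower and upper quartiles and thin lines from the 10th to the 90th percentile. The medians at 20, 24 and 30 hpf are 27 to 28 for all cells and 32 to 37 in the ectomesenchyme gate, and the 2 libraries of 18 hpf differ from each other at 17 (second) and 13 for all cells.

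The first 18 hpf library held the lowest timeline level of 29 of the 36 genes. The highest level fell at 20 hpf for 13 genes, at 30 hpf for 11 and at 24 hpf for 7. The share of all genes lowest or highest in each library was not counted, so these counts have no background. All 36 were higher at 20 hpf than at 18 hpf, 30 of them with intervals that did not overlap. Of the 4106 genes with at least 50 UMIs in both libraries, 57.3% were higher at 20 hpf and 31.0% were higher without overlap. The 36 were counted whatever their UMIs, here and in the comparisons with the second 18 hpf library. The median ratio of the 36 was 2.22, against 1.06 over the 4106 genes. The second 18 hpf library, however, was also above the first for 31 of the 36 genes, 29 of them with intervals that did not overlap, where 66.7% of 4134 genes were higher and 45.2% were higher without overlap. The median ratio was 1.59, against 1.18 over those genes. Of the 36, 30 were higher at 20 hpf than in the second 18 hpf library, as were 40.9% of 7352 genes.

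Among helicase subunits, mcm5 had 162, 122, 77.1, 244, 153 and 157 CPM from 12 to 30 hpf and 179 CPM in the second 18 hpf library. For mcm6 the values were 157, 150, 96.1, 294, 196 and 129 CPM, with 207 in the second 18 hpf library. Both were lowest at 18 hpf and highest at 20 hpf. The sliding clamp gene pcna, the most abundant of the 36 by UMIs, had 905, 798, 698, 1116, 1088 and 1425 CPM and 725 in the second 18 hpf library, with its highest value at 30 hpf. Transcripts of cdc6, the helicase loader, were at 51.1, 35.96, 28.7, 79.5, 42.4 and 61.9 CPM and at 38.0 in the second 18 hpf library. The cyclin E genes did not follow one course: ccne1 was highest at 12 hpf with 46.8 CPM and stood between 13.1 and 30.3 in every other library, whereas ccne2 had 48.5, 33.2, 26.2, 55.9, 32.2 and 63.1 CPM and 20.9 in the second 18 hpf library.

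The chromatin group contained the clearest exception. The gene hells, which encodes a remodeller that acts with DNA methylation, had 295 and 298 CPM at 12 and 14 hpf, and 109, 136, 193 and 136 CPM from 18 to 30 hpf, with 115 in the second 18 hpf library. Its highest levels were in the youngest cells. Its partner in the same complex, cdca7a, had 308, 157, 92.7, 284, 278 and 269 CPM and 143 in the second 18 hpf library. The maintenance methyltransferase gene dnmt1 had 26.4, 31.9, 16.5, 43.8, 35.8 and 54.3 CPM and 48.6 in the second 18 hpf library, and uhrf1, whose product brings Dnmt1 to replicated DNA, stood between 30.9 and 59.7 CPM throughout.

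A trend over age was fitted to all genes of the 6 timeline libraries with the edgeR quasi-likelihood test, with age as a number and p-values adjusted by the Benjamini-Hochberg method. Of the 36 genes, 1 passed an adjusted p of 0.05, in the higher direction, where 2.97% of the 10021 genes tested were called higher and 4.62% in either direction. This was dhfr, which encodes dihydrofolate reductase of the thymidylate pathway. It had 44.7, 41.6, 47.1, 66.2, 93.5 and 97.6 CPM from 12 to 30 hpf, a slope of 0.08 log2 per hour (SE 0.02, edgeR adjusted p = 0.0359). Over the alternatives that p ranged from 0.000577 with DESeq2 to 0.123, and the call was lost without any one of the 12, 14, 18, 24 or 30 hpf libraries, with no filter on low counts and with cells thinned to 5000 UMIs. In the fits where it was lost, 0.211% to 3.74% of all genes tested were called. After thinning, prim2, a primase gene, was the 1 gene of the 36 called, as higher, where 2.1% of all genes were. The slope was above 0 for 33 of the 36 genes, with a median of 0.04 log2 per hour against -0.001 over all genes tested, and 12 had an unadjusted p under 0.05, where 23.1% of all genes tested did. DESeq2 called 4 of the 36, dhfr, rrm1, prim2 and tyms, all higher, where it called 8.27% of all genes higher and 11.8% in either direction. From the list of further replication genes (60 genes), asf1ba and asf1bb, chaperone genes for new histones, passed as higher, 2 of 56 tested, and from the mitotic list 0 of 39 passed. The brakes of the cycle cdkn1a, cdkn1bb, cdkn1ca and ccng1 passed in neither direction, with slopes of -0.07, -0.00, -0.10 and 0.04 log2 per hour.

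The cells of the libraries changed in kind with age, so the same genes were examined within 1 gate. Cells with at least 1 UMI of dlx2a and of twist1a, transcription factor genes of the skeletogenic NC or ectomesenchyme, and of no other gate made up 39, 77, 253, 164 and 72 cells from 14 to 30 hpf and 303 cells in the second 18 hpf library. At 12 hpf there were 3 such cells, which were not used. The 36 genes took 0.46%, 0.40%, 0.73%, 0.68% and 0.72% of UMIs in this gate from 14 to 30 hpf and 0.62% in the second 18 hpf library, with median scores of 24, 19, 36, 32, 37 and 30. Within the gate, 33 of the 36 genes were higher at 20 hpf than at 18 hpf, as were 55.3% of 1888 genes with at least 50 UMIs in both, and 32 were higher in the second 18 hpf library than in the first, as were 59.9% of 1895. The limit of 50 UMIs was not put on the 36 genes. Against the second 18 hpf library, only 22 of the 36 were higher at 20 hpf in this gate. The share of all genes was not counted for that pair of libraries in the gate. In the edgeR trend over age in this gate, with 5 libraries, 0 of the 36 genes passed, where 0.956% of 6066 genes were called. Of the 36, 8 had an unadjusted p under 0.05 by edgeR, where 14.7% of all genes did, and 9 by DESeq2, where 13.1% did. DESeq2 also called 0 of the 36, and 3.54% of all genes. Fewer cells near S phase and fewer of these transcripts in each such cell cannot be told apart in sums over cells.

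The same genes were then compared between marker gates. For this comparison cells were taken with at least 1 UMI of gch2 (pigment gate, a gene of pteridine pigment synthesis), mfap4 (macrophage gate), myl7 (cardiac gate) or epcam (epcam gate), and of 1 gate only. Averaged over libraries with at least 10 such cells, the share of UMIs on the 36 genes was 0.22% ± 0.09 in the pigment gate (SD, n = 3 libraries), 0.14% ± 0.04 in the macrophage gate (n = 2), 0.14% ± 0.04 in the cardiac gate (n = 4) and 0.33% ± 0.06 in the epcam gate (n = 7), and 0.60% ± 0.14 in the ectomesenchyme gate (n = 6). These averages cover unlike sets of libraries and ages. The lowest value in the ectomesenchyme gate, 0.397% at 18 hpf, was above every value of the pigment, macrophage and cardiac gates. The highest value of the epcam gate, 0.399% at 24 hpf, overlapped it.

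**Figure D2:**
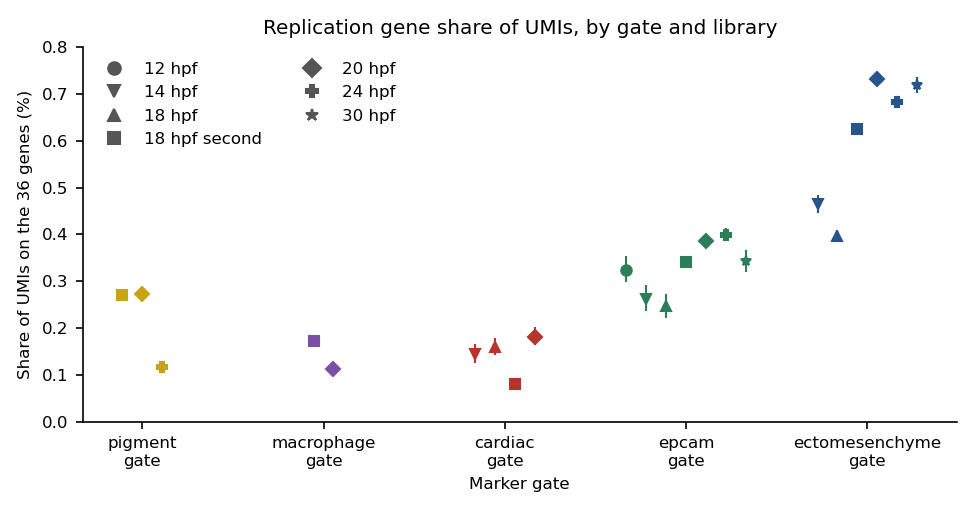
Share of a gate's UMIs on the 36 genes (vertical axis, percent) for each marker gate (horizontal axis), 1 point for each library with at least 10 cells of that gate alone, with exact 95% intervals. The pigment, macrophage and cardiac gates lie between 0.08% and 0.27%, the epcam gate between 0.25% and 0.40%, and the ectomesenchyme gate between 0.40% and 0.73%.

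The gates were checked against marker lists. Of these, 9 of 9 pigment, 8 of 8 macrophage, 8 of 8 cardiac and 8 of 8 epithelial genes were highest in their own gate, as were 7 of 8 ectomesenchyme genes. The exception was hand2, a gene of both heart and ectomesenchyme, which was highest in the cardiac gate. The lists hold the gate genes themselves, so gch2, mfap4, myl7 and epcam were highest in their own gate by construction. Over all ectomesenchyme-gate cells dlx2a and twist1a, which define that gate, had 721 and 1765 of the 2918 CPM of their list. The summed level of the ectomesenchyme list was 47.8 to 244 CPM in the pigment gate, 6.53 to 45.7 in the macrophage gate, 579 to 3158 in the cardiac gate and 23.2 to 167 in the epcam gate, and 688 to 3531 in the ectomesenchyme gate. In the ectomesenchyme gate the gate genes of the other lists, gch2, mfap4, myl7 and epcam, were at 0 by construction, as no cell of a second gate was kept. Markers of other lists were also present outside their own gates. The macrophage list summed to 69.9 to 208 CPM in the pigment gate and 110 to 429 in the cardiac gate, and 0 to 2.68 in the ectomesenchyme gate, with mfap4 and marco at 0 in all 3. The cardiac list summed to 75.1 to 524 CPM in the macrophage gate and 0 to 41.1 in the ectomesenchyme gate, and the neural list to 379 to 808 CPM in the epcam gate and 8.43 to 128 in the ectomesenchyme gate. Their part in the gate comparisons was not tested. Cells of several gates, 164 in all and 61 of them at 24 hpf, were not used in the main comparisons. Of these, 64 had passed both the pigment and the ectomesenchyme gate. Thus 124 of 231 gch2-positive cells were kept, 60 of 106 mfap4-positive, 160 of 184 myl7-positive and 381 of 451 epcam-positive cells. In the ectomesenchyme gate 911 of 998 were kept.

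Each of the 4 gates was compared with the ectomesenchyme gate by edgeR on counts summed per gate and library, with the library as a block. The 4 comparisons share their ectomesenchyme cells and are given side by side. In the pigment gate 35 of the 36 genes were lower, where 10.2% of 7977 genes were called lower. In the macrophage gate 32 of 36 were lower, where 18.7% of 8732 genes were. In the cardiac gate 34 of 36 were lower, against 18.8% of 6663 genes. In the epcam gate 29 of 36 were lower, against 19.9% of 7168 genes. With no library block 17 of the 36 were called lower in the pigment gate, against 3.27% of all genes. In the epcam gate 11 of 35 tested were then called lower, against 8.39%. No gene of the 36 was called higher in any of them, where 12.6%, 18.7%, 20.2% and 22.2% of all genes tested were. The median log2 fold change of the 36 was -1.69, -2.03, -2.25 and -0.75 in the pigment, macrophage, cardiac and epcam gates, where the median over all genes tested was -0.06, -0.14, -0.03 and -0.05. With cells of several gates kept, the median in the pigment gate was -0.87 and 31 of the 36 were called lower, against 11.5% of all genes.

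**Figure D3:**
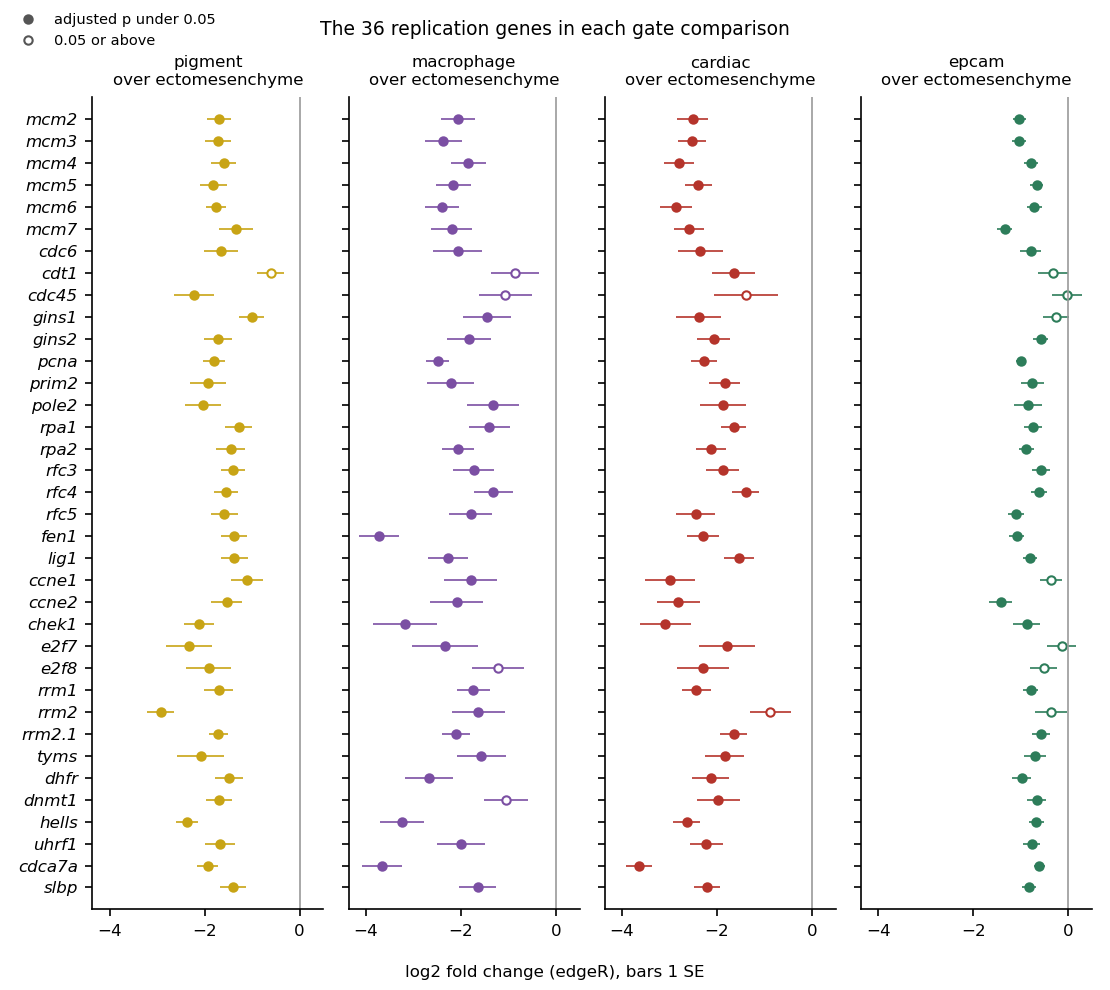
Log2 fold change (horizontal axis) of each of the 36 genes (rows) in the pigment, macrophage, cardiac and epcam gates over the ectomesenchyme gate, with bars of 1 SE; filled circles have an edgeR adjusted p under 0.05. Every point lies below 0, with medians of -1.69, -2.03, -2.25 and -0.75, and the open circles are mostly genes of low counts such as cdt1 and cdc45.

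In all 4 comparisons 28 of the 36 genes were called lower. The share of all genes called lower in all 4 was not counted, and the comparisons share their ectomesenchyme cells. The 4 genes called in 3 were ccne1, dnmt1, e2f7 and gins1, those called in 2 were e2f8 and rrm2, and those called in 1 were cdt1 (cardiac) and cdc45 (pigment). All 10 fork genes, which encode the clamp, clamp loader, primase, a polymerase subunit, the single-strand binding protein, flap endonuclease and ligase, were lower in every gate. Of the 5 entry genes, ccne2 and chek1 passed in the epcam gate, where the median of the 5 was -0.52. The entry gene e2f7 rests on 0 to 6 UMIs in each timeline library of that gate. The difference between fork and entry genes was not tested.

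In pigment-gate cells pcna had 464 CPM at 20 hpf, 228 at 24 hpf and 482 in the second 18 hpf library, against 1421, 1419 and 1135 CPM in ectomesenchyme-gate cells of the same libraries (log2 fold change -1.79, SE 0.23, edgeR adjusted p = 0.000478). Every pigment-gate value lay below every ectomesenchyme-gate value. Transcripts of hells were at 43.5, 47.1 and 32.5 CPM in the pigment gate, against 189, 269 and 192 CPM in the ectomesenchyme gate (-2.38, SE 0.23, edgeR adjusted p = 8.62e-05). The helicase gene mcm6 had 113, 54.3 and 122 CPM in the pigment gate, against 395, 256 and 312 CPM (-1.76, SE 0.22). For mcm5 the log2 fold change was -1.81, for cdc6 -1.65, for ccne2 -1.54, for uhrf1 -1.67 and for dnmt1 -1.69, and ccne1, which controls entry, was nearest to the threshold at -1.11 (SE 0.34, edgeR adjusted p = 0.0386). The pigment cells of 24 hpf had the lowest share, at 0.116% and a median score of 2, with a score of 0 in 39.5% of 38 cells. Those of 20 hpf had a share of 0.272% and a median score of 8, and those of the second 18 hpf library 0.269% and 12. Of the genes lowest in this comparison, cdc45, e2f7, pole2 and chek1 rest on 1 to 11 UMIs per library in the pigment gate. The change was -2.08 for tyms, the thymidylate synthase gene, and -1.93 for cdca7a, and the largest, that of the row rrm2, is given with that row. Summed with its uncertain copy rrm2.1, it was -2.02 (SE 0.21), a smaller change than that of hells.

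Macrophage-gate cells were compared in 2 libraries only, 14 cells at 20 hpf and 34 in the second 18 hpf library, which leaves 1 residual degree of freedom. The edgeR p-values here rest mainly on spread pooled over all genes and say little of the spread between these 2 libraries. Their size cannot be set against that of p-values from the other gates. The flap endonuclease gene fen1 had 6.53 and 33.8 CPM in the macrophage gate, from 2 and 34 UMIs, against 299.9 and 321 CPM in the ectomesenchyme gate (log2 fold change -3.72, SE 0.42, edgeR adjusted p = 2.34e-17). Both libraries were low by a wide margin. For pcna the values were 186 and 250 CPM against 1421 and 1135 CPM (-2.49, SE 0.25). Next after fen1 came cdca7a at -3.66, hells at -3.24, the checkpoint kinase gene chek1 at -3.17, from 1 and 4 UMIs in the macrophage gate, and dhfr at -2.67. Log2 fold changes were -2.40 for mcm6, -2.37 for mcm3, -2.16 for mcm5, -2.07 for cdc6, -2.09 for ccne2, -1.79 for ccne1 and -2.0003 for uhrf1. For dnmt1, with 13.1 and 39.7 CPM in the macrophage gate against 51.0 and 67.1 CPM, the value was -1.05 (SE 0.47, edgeR adjusted p = 0.0656). The DESeq2 Wald test called 26 of the 36 lower, against 8.31% of all genes.

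Scores of cardiac-gate cells were low in every library: the median was 5, 3.5 and 2 at 14, 18 and 20 hpf, from 15, 18 and 19 cells, and 0 among the 103 cells of the second 18 hpf library. Transcripts of pcna were at 248, 435 and 260 CPM at 14, 18 and 20 hpf and 125 in the second 18 hpf library in the cardiac gate, against 1023, 933, 1421 and 1135 CPM in the ectomesenchyme gate (log2 fold change -2.27, SE 0.27, edgeR adjusted p = 1.61e-05). Here too the highest cardiac value was below the lowest ectomesenchyme value. For cdca7a the values were 13.8, 5.72, 36.4 and 17.1 CPM against 170, 129, 374 and 216 CPM (-3.65, SE 0.28, edgeR adjusted p = 1.71e-07), the largest change of the 36 in this comparison. Transcripts of ccne1 fell by 2.99 on the log2 scale and those of ccne2 by 2.81, resting on 0 to 6 UMIs per library in the cardiac gate. For chek1, with 0, 0, 1 and 7 UMIs in the cardiac gate, the fitted value was -3.09. The values were -2.86 for mcm6, -2.79 for mcm4, -2.64 for hells, -2.59 for mcm7, -2.40 for mcm5, -2.35 for cdc6, -2.22 for uhrf1 and -1.97 for dnmt1. Cardiac-gate cells had median depths of 9190.5 to 14183 UMIs and ectomesenchyme-gate cells of 11874 to 29173. With all cells thinned to 5000 UMIs, 29 of 30 genes tested were called lower, against 20.5% of all genes. The part of depth beyond this, and of free RNA in the few UMIs that remained, was not tested.

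The epcam gate was nearest to the ectomesenchyme gate. The gene pcna had 526, 439, 723, 720.4 and 774 CPM from 14 to 30 hpf and 554 in the second 18 hpf library in the epcam gate, against 1023, 933, 1421, 1419, 1827 and 1135 CPM in the ectomesenchyme gate (log2 fold change -1.002, SE 0.11, edgeR adjusted p = 8.75e-06). It was lower in 6 of 6 libraries, and the highest epcam-gate value lay below the lowest ectomesenchyme-gate value. The largest change was that of ccne2, with 38.6, 13.9, 13.9, 16.5 and 15.9 CPM and 12.1 in the second 18 hpf library, against 44.1, 31.3, 67.2, 37.6, 86.4 and 30.5 CPM (-1.43, SE 0.25, edgeR adjusted p = 0.000503). Its paralog ccne1 did not pass, at -0.36 (SE 0.23, edgeR adjusted p = 0.238), and the difference between the paralogs was not tested. The other values were -1.34 for mcm7, -1.10 for the clamp loader gene rfc5, -1.08 for fen1, -1.03 for mcm2 and mcm3, -0.98 for dhfr, -0.71 for mcm6, -0.67 for mcm5, -0.79 for cdc6, -0.66 for dnmt1 and -0.77 for uhrf1. In all, 21 of the 36 genes were lower in every one of the 6 libraries. In the pigment (3 libraries) and macrophage (2 libraries) gates 36 of 36 were, and in the cardiac gate (4 libraries) 34 of 36. The share of all genes lower in every library was not counted, and with unlike numbers of libraries these counts cannot be compared between gates.

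The summed NC list, sox10 among its 6 genes, was 413 to 4746 CPM in the epcam gate and 137 to 1922 CPM in the ectomesenchyme gate. Most of this sum was sox10, at 3573 CPM over all epcam-gate cells and 474 CPM over all ectomesenchyme-gate cells. Over the same cells foxd3 stood at 16.8 CPM in the epcam gate and 65.2 in the ectomesenchyme gate, and crestin at 1.21 and 12.4. For tfap2a the values were 43.0 and 182, and tfap2e had 0 UMIs in the epcam gate and 5 in the ectomesenchyme gate. These were all lower in the epcam gate, whereas sox9b, the remaining gene of the list, was higher there, at 15.4 CPM against 7.43. The summed epithelial list was 1598 to 11624 CPM in the epcam gate and 88.2 to 542 CPM in the ectomesenchyme gate, where krt8 made up most of it and epcam and cldnh were at 0. Their part in the result was not tested.

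Further replication genes were tested beside the 36. From a list of 60 further genes chosen from general knowledge, 42 of 54 tested were lower in the pigment gate, 35 of 55 in the macrophage gate, 46 of 50 in the cardiac gate and 29 of 52 in the epcam gate, where 10.2%, 18.7%, 18.8% and 19.9% of all genes tested were called lower. The most lowered were chaf1b, a histone chaperone gene, and msh6, a mismatch repair gene, in the pigment gate (-2.23 and -2.14), cdca7b and pold2 in the macrophage gate (-3.34 and -3.24), and orc5, an origin recognition gene, in both the cardiac (-3.50) and epcam (-1.87) gates. The exceptions were both genes of guanine nucleotide synthesis. In the pigment gate impdh1b was higher by 3.93 (SE 0.40, edgeR adjusted p = 0.000115), a gene of the pathway that also feeds pteridine pigments, and in the cardiac gate impdh2 was higher by 1.39 (SE 0.39, edgeR adjusted p = 0.0124).

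Genes of mitosis, from a list of 40, were lower in 24 of 39 tested in the pigment gate, 34 of 39 in the macrophage gate, 26 of 39 in the cardiac gate and 7 of 39 in the epcam gate, with median log2 fold changes of -1.43, -1.59, -1.43 and -0.24. Against the same shares of all genes, the count in the epcam gate was no higher than the background of 19.9%. No gene of that list was called higher. The most lowered were the condensin gene smc2 in the pigment gate (-2.04), the cyclin gene ccnb3 in the macrophage gate (-4.03), the spindle motor gene kif11 in the cardiac gate (-2.71) and mki67 in the epcam gate (-0.69). Among the brakes, cdkn1bb, which encodes a Cdk inhibitor, was higher in the pigment gate by 0.98 (SE 0.22, edgeR adjusted p = 0.0116), in the cardiac gate by 0.90 and in the epcam gate by 0.62, and had 0.38 (SE 0.41, edgeR adjusted p = 0.498) in the macrophage gate. The inhibitor gene cdkn1ca was lower in the macrophage gate by a log2 value of -4.76 and in the cardiac gate by -1.52, and cdkn1a was lower in the macrophage (-3.17), cardiac (-3.71) and epcam (-1.36) gates. For ccng1 only the epcam gate passed, at 0.68.

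Whether the 36 genes vary together was asked cell by cell. Each library was ordered by the score of the other 35 genes, and the UMIs of a gene in the cells above the upper quartile were divided by those in the cells below the lower quartile. The ratio was above 1 in every library for 33 of the 36 genes, and its median over the 7 libraries was 7.36 across the genes. Where the lower cells had 0 UMIs, 3 were put in their place, so that the ratio is a lower bound. This was so for chek1 in 4 libraries, for cdc6 and rrm2 in 3, and for ccne2, dnmt1, e2f7 and tyms in 2. It was so in 1 library for cdc45, gins1, prim2, pole2, rfc5, fen1 and e2f8. An order among such genes cannot be read from their medians. Summed over libraries, cdc6 had 434 UMIs in the upper and 5 in the lower cells, ccne2 318 and 8, dnmt1 318 and 11, chek1 132 and 6, and pole2 132 and 12. Of genes with no library at 0, slbp, the histone mRNA binding protein gene, had the highest median at 14.2 and cdt1 the lowest at 1.60, with 108 and 58 UMIs. With cells divided at the median of the score instead, the median ratio across genes was 3.01, and it was 9.69 for ccne2, 8.61 for cdc6, 3.67 for chek1 and 1.83 for cdt1, none with a library at 0. Among cells of the ectomesenchyme gate alone the median across genes was 2.65, and 26 genes were above 1 in every one of the 5 libraries with at least 40 such cells. Genes compared in this way share library, cells and depth, and no test was made. No share over genes outside the 36 is set beside the counts of genes above 1.

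Outside the 36, among 1090 genes with at least 50 thinned UMIs in every library, the gene most like the score was asf1ba with a median ratio of 18.0 (4.50 to 31.0 over 7 libraries). It was followed by nasp, a further histone chaperone gene, at 11.5, dnajc9 at 10.9, pclaf, whose product binds Pcna, at 9.92, orc4 at 7.83, hirip3 at 7.78, CABZ01005379.1 at 7.33, stmn1a at 7.13, twist1a at 6.93 and cdca7b at 6.17. Of these 10, asf1ba, nasp, orc4 and cdca7b were on the list of further replication genes. The gate gene twist1a ranged from 0.42 to 65.4 between libraries. These quartiles were taken over all cells of a library, whose kinds differ in score. Median scores were 0 to 5 in the cardiac gate and 19 to 37 in the ectomesenchyme gate. Ratios within 1 gate are not given for these genes, and the part of cell kind was not tested.

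Within the ectomesenchyme gate the replication score and the mitotic score ran in opposite directions. In the 20 hpf library the mean mitotic score, UMIs on the mitotic list per 5000, was 63.6, 56.3, 50.4 and 47.5 from the quartile of cells with the lowest to that with the highest replication score. It was 79.8, 72.1, 71.7 and 65.1 at 24 hpf, 70.3, 54.6, 52.9 and 49.6 at 30 hpf, and 57.5, 53.7, 46.7 and 41.7 in the second 18 hpf library. At 18 hpf it was 49.8, 42.9, 38.8 and 40.1. The lowest quartile by replication score had the highest mean mitotic score in 5 of 5 libraries.

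Dividing the same cells at the median of the mitotic score gave an order among the 36 genes. Leaving out rrm2, whose UMIs come from few libraries, the ratio of UMIs in cells above over cells below that median, as a median over the 5 libraries, was lowest at 0.36 for e2f8, 0.40 for ccne2, 0.46 for cdc6, 0.50 for ccne1 and 0.50 for e2f7. In the grouping used here, 4 of the 5 entry genes stood among them, with chek1 as the exception, and 1 of the 2 licensing genes, cdc6. The other licensing gene, cdt1, had the highest ratio of all. Their UMIs above and below, over the 5 libraries, were 30 and 77 for e2f8, 56 and 158 for ccne2 and 82 and 219 for cdc6. They were 44 and 82 for ccne1 and 17 and 50 for e2f7. These counts are small, with 2 to 5 UMIs of e2f7 per library in the cells above, and ccne1 ranged from 0.14 to 1.67 between libraries. The fork genes had a median of 0.76 and the helicase genes of 0.73, with 0.76 for pcna and 0.98 for mcm2. Medians at or above 1 were those of chek1 (1.00), hells (1.02), dhfr (1.03), pole2 (1.27) and cdt1 (1.38). The libraries ranged from 0.30 to 3.00 for chek1, from 0.62 to 5.00 for pole2 and from 0.82 to 4.00 for cdt1, so that their place is not fixed beyond the spread between libraries. Summed over libraries, chek1 had 67 UMIs in the cells above and 71 in those below, hells 420 and 461, and pole2 58 and 66. The sums of dhfr, 224 and 208, and of cdt1, 76 and 65, were higher in the cells above. Between the upper and lower quartiles of the mitotic score the median was 0.85 for dhfr and 0.56 for pole2. It was 1.00 for chek1 and 1.27 for hells, although the UMIs of hells summed to 196 in the upper and 225 in the lower cells. For cdt1 the median stayed above 1, with 4 of 5 libraries above 1 and 38 UMIs against 26. With cells divided at the median of the mitotic score, all 5 libraries were below 1 for e2f8, ccne2, cdc6 and e2f7, and 4 of 5 for ccne1. Between the quartiles the highest library stood at 1.00 for e2f8 and e2f7, 0.50 for ccne1, 0.33 for ccne2 and 0.29 for cdc6. The order was not the same there: the medians of cdc45, at 0.29, and slbp, at 0.42, were below that of ccne1, at 0.43.

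**Figure D4:**
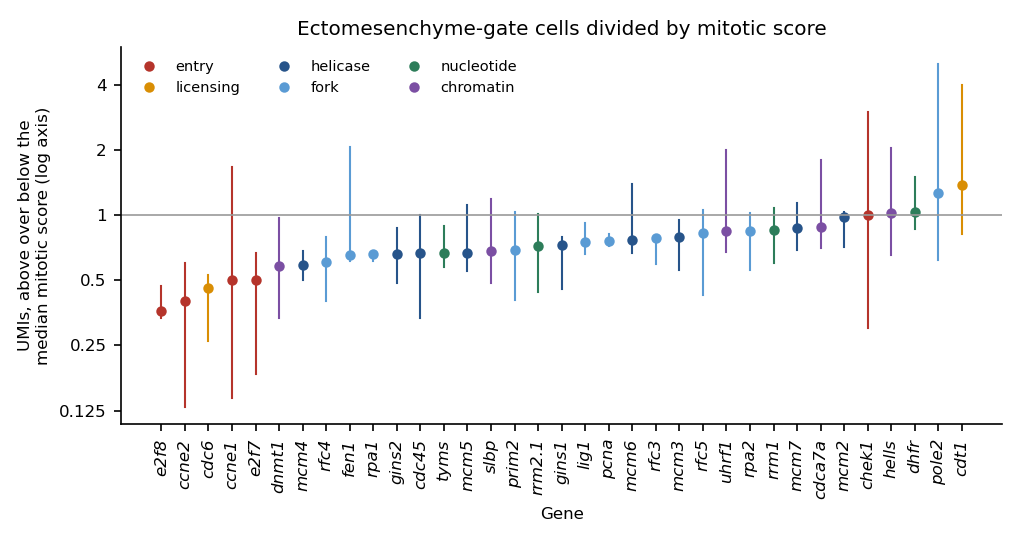
UMIs of each gene in ectomesenchyme-gate cells above over those below the median mitotic score (vertical axis, log scale) for 35 genes (horizontal axis, in order; rrm2 is left out because its UMIs come from few libraries). Points are medians and lines the range over 5 libraries, coloured by role; e2f8, ccne2, cdc6, ccne1 and e2f7 lie lowest at 0.36 to 0.50, and pole2 and cdt1 highest at 1.27 and 1.38 with wide ranges.

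The small subunit of ribonucleotide reductase, which makes deoxynucleotides, was split over 2 rows of the tables, rrm2 and rrm2.1. The symbol belongs to 2 gene IDs in the name table at hand, and which ID stands behind which row is not stated in the sources used here, so the 2 are reported as uncertain copies. The row rrm2.1 had 369, 317, 486, 507, 240 and 856 CPM from 12 to 30 hpf and 463 CPM in the second 18 hpf library. The row rrm2 had 2.32, 122, 1.25, 213, 470 and 2.92 CPM and 0.71 in the second 18 hpf library. It was thus near its floor in 4 libraries and abundant at 14, 20 and 24 hpf. Their sum was smoother, with 371, 440, 487, 720, 710 and 859 CPM and 463 in the second 18 hpf library. As a single row the sum had a slope of 0.07 log2 per hour (SE 0.01, edgeR adjusted p = 0.0394). The count of genes called in the age trend was then 2, as higher, where 3.04% of all genes tested were called higher.

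The split was also seen in single cells. Of cells with at least 4 UMIs on the pair, 133 of 251 at 24 hpf had at least 90% of them on rrm2, 63 had between 10% and 90% and 55 at most 10%. At 20 hpf the counts were 30, 140 and 172 of 342 cells, and at 14 hpf 16, 73 and 86 of 175 cells. In the other 4 libraries, 0 cells reached 90% and 1 or 2 lay between, of 88 to 544 cells. At 20 hpf the summed level of the pair was 1059 CPM (977 to 1147) in cells with at least 90% on rrm2, 1024 (986 to 1062) in those between and 1012 (979 to 1046) in those with at most 10%, with intervals that overlapped. Levels of pcna were 1522, 1440 and 1462 CPM and median scores 36.5, 38.5 and 36 in the same 3 ranges. At 24 hpf the summed level was 1071 (1024 to 1119), 903 (843 to 966) and 987 CPM (920.4 to 1058), and at 14 hpf it was 440 (352 to 543), 753 (698 to 812) and 732 CPM (680.2 to 786), so that the first range was highest at 24 hpf and lowest at 14 hpf. Cells of the ectomesenchyme gate occurred in all 3 ranges, with 66, 39 and 34 of them at 24 hpf. In the pigment gate rrm2 had 34.4 and 61.5 CPM at 20 and 24 hpf and 0 UMIs in the second 18 hpf library, against 258, 523 and 0.88 CPM in the ectomesenchyme gate (log2 fold change -2.92, SE 0.28, edgeR adjusted p = 7.73e-05), and rrm2.1 had 183, 74.2 and 209 CPM against 598, 264 and 651 CPM (-1.71, SE 0.20). As 1 summed row the pair had a log2 fold change of -2.02 (SE 0.21, edgeR adjusted p = 0.000113) in that comparison. The cause of the split was not tested.

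**Figure D5:**
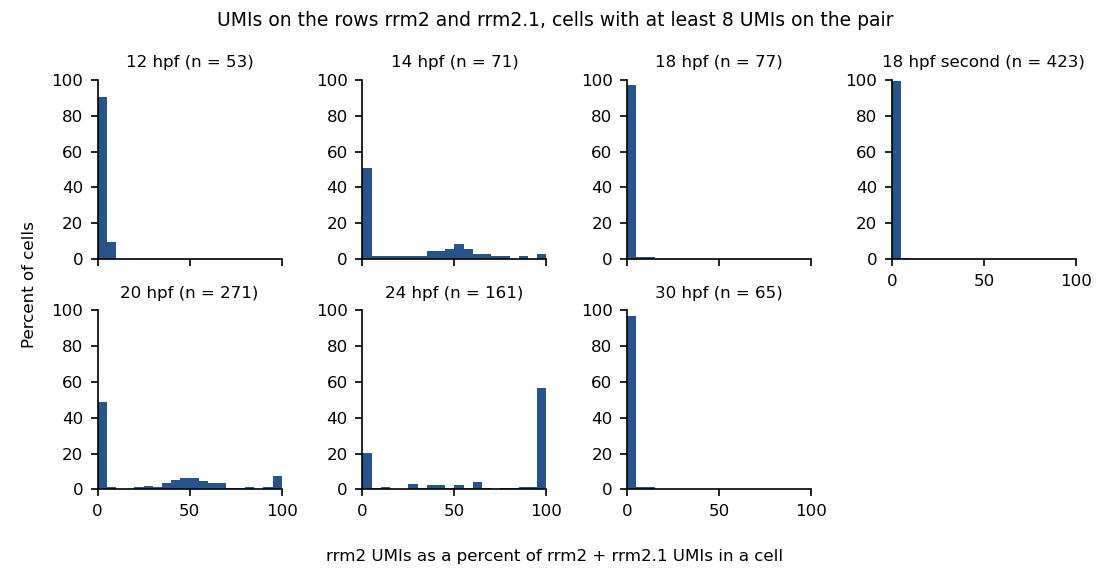
Percent of cells (vertical axes) by the share of a cell's rrm2 and rrm2.1 UMIs that lie on rrm2 (horizontal axes, percent), in each library, for cells with at least 8 UMIs on the pair (n in each title). Nearly all cells are near 0 at 12, 18 and 30 hpf and in the second 18 hpf library, while cells at 20 and 24 hpf fall into 3 ranges near 0, around the middle and near 100%, and those at 14 hpf lie mostly near 0 and around the middle, with 2 of 71 cells above 95%.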

How the data were processed

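UMI counts per gene and cell were used as the authors deposited them, raw and not normalized. Per the labels and the study's methods, reads had been mapped to GRCz11 with Cell Ranger and the timeline libraries aggregated. Whether depth was equalised then is not given in the sources used here, and low-quality cells had been removed before deposit. All 2854 cells passed 500 genes and 10% mitochondrial UMIs, and 0 columns were left unused. Timeline libraries were read from the number at the end of each barcode. Doublets were called with Scrublet (scanpy 1.11.5) and kept. Cells were thinned to 5000 UMIs (seed 1), and cells of exactly 1 marker gate were summed per library where at least 10 were present. Sums were tested with edgeR 4.0.16 (quasi-likelihood, TMM, filterByExpr, Benjamini-Hochberg, threshold 0.05), with the library as a block between gates because both gates come from the same library. SE is the log2 change divided by the square root of F. Genes such as rrm2 and rrm2.1, or mcm6 with its 2 gene IDs in the name table, may share reads with a copy.

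The members, lists and gates were chosen with earlier results of these data known. All 36 genes could be named, with full values for at most the 8 largest changes per comparison and for pcna, mcm5, mcm6, cdc6, ccne1, ccne2, rrm2, rrm2.1, dnmt1 and uhrf1. Outside the 36, up to 4 genes per list and direction, the 10 genes most like the score and 4 brakes could be named. On simulated counts with 200 genes changed 4-fold, the test recovered 91.0%, 50.0%, 82.5% and 96.0% of them in the pigment, macrophage, cardiac and epcam comparisons. The simulation gave every gene the same dispersion, and its other genes did not differ between libraries or gates. These shares are therefore not the power of the comparisons on the real counts. Promoter sequences were not analysed here.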

Additional observations from a re-analysis of the deposited data

How the results depend on the processing

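Counts of the 36 genes called stayed within 1.5 times of the values above for the gate comparisons under every alternative run except, in the pigment and epcam gates, the fit with no library block. Leaving out each library in turn gave 33 to 34 genes in the pigment, 27 to 35 in the cardiac and 22 to 29 in the epcam comparison. The 27 were of 30 tested, without the second 18 hpf library. Of all genes, 4.96% to 14.5%, 10.6% to 20.6% and 11.9% to 19.6% were called lower in these fits. Without the library pairing (no replicate block) 17 genes were called in the pigment gate and 22 in the macrophage gate, all lower. In the cardiac gate 32 of 34 tested were called and in the epcam gate 11 of 35, all lower. Of all genes, 3.27%, 7.92%, 9.95% and 8.39% were called lower in these 4 fits. Thinning to 5000 UMIs gave 28 of 35 genes tested in the pigment gate and 27 of 35 in the macrophage gate. It gave 29 of 30 in the cardiac gate and 22 of 33 in the epcam gate. Of all genes, 8.46%, 14.1%, 20.5% and 18.9% were called lower after thinning. The DESeq2 Wald test called 34, 26, 33 and 29 of the 36 in the same order, against 7.07%, 8.31%, 12.4% and 18.3% of all genes. Keeping cells of several gates moved the median of the pigment comparison to -0.87, with 31 genes called lower, against 11.5% of all genes. The age trend over all cells called 4 genes with the DESeq2 Wald test, 0 with no filter on low counts and 2 with rrm2 and rrm2.1 summed. Of all genes, 11.8%, 2.94% and 4.71% were called in these fits. When a library was left out it called 0 to 1, against 0.211% to 4.29% of all genes. In the ectomesenchyme gate the age trend called 0 under every alternative run, against 0.318% to 3.54% of all genes. The fits without deep cells, with summed rrm2 rows and with gates set after thinning, and the ratios within the ectomesenchyme gate, were chosen after seeing the data.

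The share of UMIs moved beyond its counting interval as follows. With no UMI of mfap4, myl7 or epcam it was 0.400% at 14, 0.317% at 18, 0.644% at 20, 0.581% at 24 and 0.645% at 30 hpf and 0.507% in the second 18 hpf library, and the percent of cells at or above the upper quartile of the score was 45.3 at 20, 41.2 at 24 and 48.5 at 30 hpf and 28.7 in the second 18 hpf library. Thinned to 3000 UMIs, which weights cells equally, the share was 0.378% at 14, 0.290% at 18, 0.592% at 20 and 0.541% at 24 hpf and 0.397% in the second 18 hpf library. At 5000 UMIs it was 0.428% at 12, 0.378% at 14 and 0.539% at 24 hpf and 0.392% in the second 18 hpf library, and at 8000 UMIs 0.592% at 20, 0.550% at 24 and 0.580% at 30 hpf and 0.396% in the second 18 hpf library. Leaving out a library or asking for 20 cells was not run in the macrophage gate, nor 20 cells in the cardiac gate, since too few libraries remained, and the promoter search was not run. With 1 library per stage, 2 libraries in the macrophage comparison and fewer than 20 UMIs for many genes in the smaller gates, genes that did not pass may still differ.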

Other observations

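Some genes outside the 36 were most abundant in the cells with the lowest scores. They were chosen after their values were seen. Among the 1090 genes compared, the lowest ratio of UMIs, cells above the upper over cells below the lower quartile of the score, was that of pfn1, which encodes the actin-binding protein profilin, with a median of 0.09 over 7 libraries (0.03 to 0.32). It was followed by histh1l, a linker histone gene, at 0.22 (0.07 to 0.41), and by atp6v1g1, a subunit gene of the vacuolar proton pump, at 0.24 (0.06 to 1.00). For pfn1 and histh1l the ratio was below 1 in 7 of 7 libraries. Here too the quartiles were taken over all cells of a library, and gates differed in score. The part of cell kind in these ratios was not tested.

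The Cdk inhibitor gene cdkn1a was at 73.0 and 68.4 CPM in the first and second 18 hpf libraries, and at 10.2, 34.4, 9.35, 21.5 and 11.1 CPM at 12, 14, 20, 24 and 30 hpf. It is thus a gene on which the 2 libraries of that age lie close together and above the other 5.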
